A study of Homo sapiens with 6 samples.

Results

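Semaphorin ligands, their plexin receptors and the neuropilins were examined in Mum-2b cells, a human uveal melanoma line, after knockdown of NELFCD. Membership was set by name and biotype: protein-coding rows of the count table whose symbol begins with SEMA or PLXN, plus NRP1 and NRP2. This gave 31 of the 58735 rows, namely 20 semaphorins, 9 plexins and 2 neuropilins. RNA-seq was run on 3 libraries of knockdown cells (genotype NELFCD_knockdown, libraries shRNA1_1 to shRNA1_3) and 3 libraries of control cells (genotype WT, libraries NC1 to NC3). The knockdown library names carry the number of 1 hairpin RNA only, so the loss of the target and any other action of that hairpin cannot be told apart. The labels do not say what the NC cells received or whether replicates were separate cultures, and the p-values therefore measure only the spread between these samples, which may be technical.

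Semaphorins are guidance proteins first known from growing axons, where most of them repel. Class 3 members are secreted, classes 4 to 6 span the membrane, and SEMA7A is held by a lipid anchor. Plexins are the signalling receptors, and their intracellular part acts on small GTPases of the Ras and Rap type and so on adhesion and the actin cytoskeleton. Most class 3 ligands first bind a neuropilin, which presents them to a plexin, and the neuropilins also bind vascular endothelial growth factors (VEGF). In tumours and in the pigment cell lineage the family is known for effects on adhesion, migration and vessel growth. The protein made from NELFCD belongs to the negative elongation factor complex, which pauses RNA polymerase II close to transcription starts.

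The sequences upstream of the plexin and the semaphorin with the largest and the smallest-p decreases (PLXND1 and SEMA7A) are given, from RefSeq on GRCh38.p14. Any relation of these bases to the action of that complex was not tested. Only bases upstream of both the RefSeq start and the start of the deposited gene model are printed. Both genes are on the minus strand, the letters read 5′ to 3′ along it, and capitals mark the GC box (GGGCGG, or CCGCCC for the other strand, overlapping matches counted). The PLXND1 sequence covers chr3:129606819-129606926 with 7 GC boxes, and the SEMA7A sequence covers chr15:74433959-74434208 with 3.
PLXND1: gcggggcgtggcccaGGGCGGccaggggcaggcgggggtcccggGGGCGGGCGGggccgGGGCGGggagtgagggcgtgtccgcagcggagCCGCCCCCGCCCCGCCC
SEMA7A: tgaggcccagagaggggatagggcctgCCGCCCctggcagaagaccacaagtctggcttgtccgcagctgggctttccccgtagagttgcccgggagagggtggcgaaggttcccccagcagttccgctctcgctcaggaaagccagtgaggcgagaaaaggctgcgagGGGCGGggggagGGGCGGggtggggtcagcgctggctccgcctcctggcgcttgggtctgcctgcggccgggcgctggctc

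Of the 26 members that could be tested, 22 had a RefSeq promoter entry. In the 250 bases before the RefSeq start, 17 of these 22 held a GC box on either strand, against 42.6% of all 35116 entries. The TATA box (TATAAA or TTTATA) was in 0 of 22 against 10.7% of all entries, the AP-1 motif (TGANTCA) in 0 of 22 against 6.57%, and the TEAD motif (GGAATG or CATTCC) in 2 of 22 against 11.9%. The median GC content of these windows was 69.4% for the members and 58.0% for all entries. The GC content and the motif counts of these windows are not independent of each other, and a match in letters is not a site in use. The 35116 entries were not limited to tested genes, and a gene could have several. For some members the RefSeq start lay far from the start of the deposited gene model, by 72218 bases for PLXNA4 and 24316 for SEMA4B. Such windows may not be those of the transcripts that were counted. Whether the members differ in these traits from other tested genes was not tested.

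The libraries held 14306733 to 16656630 counts, and the 31 members took 0.136% to 0.219% of them in knockdown libraries against 0.155% to 0.277% in control libraries. NELFCD itself had 20.7, 37.4 and 40.3 CPM (counts brought to a common library size, with sizes scaled by the trimmed mean of M-values) in knockdown libraries 1 to 3 and 65.5, 88.3 and 83.5 CPM in control libraries 1 to 3. Replicate 1 stood apart in both groups. Chi-square values per degree of freedom between libraries of 1 group were 86.1 to 101 where replicate 1 was one of the pair and 2.02 and 2.16 between replicates 2 and 3. Of 10 melanocytic markers, TYRP1 and MC1R reached 1 FPKM (fragments scaled by gene length and library depth, as deposited) in some library, and MITF, PMEL, MLANA, TYR, DCT, SOX10, S100B and SLC45A2 did not. The summed FPKM of that list was 2.78 to 6.01 in knockdown libraries and 2.55 to 4.57 in control libraries. Of 8 epithelial markers KRT8, KRT18, KRT7 and CLDN4 reached that level, and EPCAM, CDH1, KRT19 and ESRP1 did not. The list sums were 443 to 515 FPKM in knockdown libraries against 329 to 455 FPKM in control libraries. Mean FPKM in knockdown and control was 117 and 106 for KRT8, 153 and 113 for KRT18 and 214 and 182 for KRT7. CLDN4 went the other way, at 4.02 and 10.7 FPKM. None of 8 immune markers reached 1 FPKM. Of 9 fibroblast markers ACTA2 alone did so, with list sums of 0.836 to 1.39 against 0.983 to 1.64 FPKM.

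Without a replicate term and with all libraries included, edgeR's quasi-likelihood test called 0 of 14844 genes in either direction (0%), and 0 of 26 tested members. At an unadjusted p under 0.05 it found 954 genes (6.43%) and 4 members, all lower. These were NRP1, SEMA7A, PLXND1 and PLXNA4, but PLXNA4 passed the filter on low counts through its control libraries alone and so had to be lower, which leaves 3. DESeq2 without the term called 50 genes higher and 111 lower, with NRP1 the only member, and limma-voom called 0. Replicate 1 deviated in the same way in both groups, but replicate 2 minus replicate 3 did not correlate between them (-0.0012, across genes). Pairs 2 and 3 below therefore join libraries by number only. With the replicate number as a blocking factor, edgeR's test called 813 genes higher (5.48%) and 1189 lower (8.01%). In this blocked fit 8 of 26 members fell and 1 rose at a Benjamini-Hochberg adjusted p under 0.05. The members that fell were the receptors PLXND1, PLXNA2, NRP1 and NRP2 and the ligands SEMA7A, SEMA3D, SEMA4F and SEMA4D, and SEMA4B rose. The log2 fold changes below, knockdown over control with their standard error (SE), are from the blocked fit unless stated. No member was called by edgeR with the group alone in the model and all libraries included.

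The median log2 fold change was -0.30 over the 26 members and 0.00 over all genes tested. In replicate pairs 1, 2 and 3 the members' medians were -0.42, -0.10 and -0.24. PLXNA4 is part of these and the next counts although its direction was set by the filter. In 16 of 26 members the knockdown library was the lower one in 3 of 3 pairs, which held for 26.8% of all genes, and in 3 members it was the higher one in 3 of 3 pairs, which held for 25.9%. The knockdown libraries were all below the control libraries in SEMA7A, NRP1 and PLXND1, and also in PLXNA4, where the filter had built in the difference, against 7.38% of genes, and all above them in 0 members, against 7.52%. With 3 libraries against 3 an exact permutation test cannot give a two-sided p below 0.1, which was the value for each of these genes. In bulk RNA, less RNA per cell and fewer cells of a kind with that RNA cannot be told apart.

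**Figure D1:**
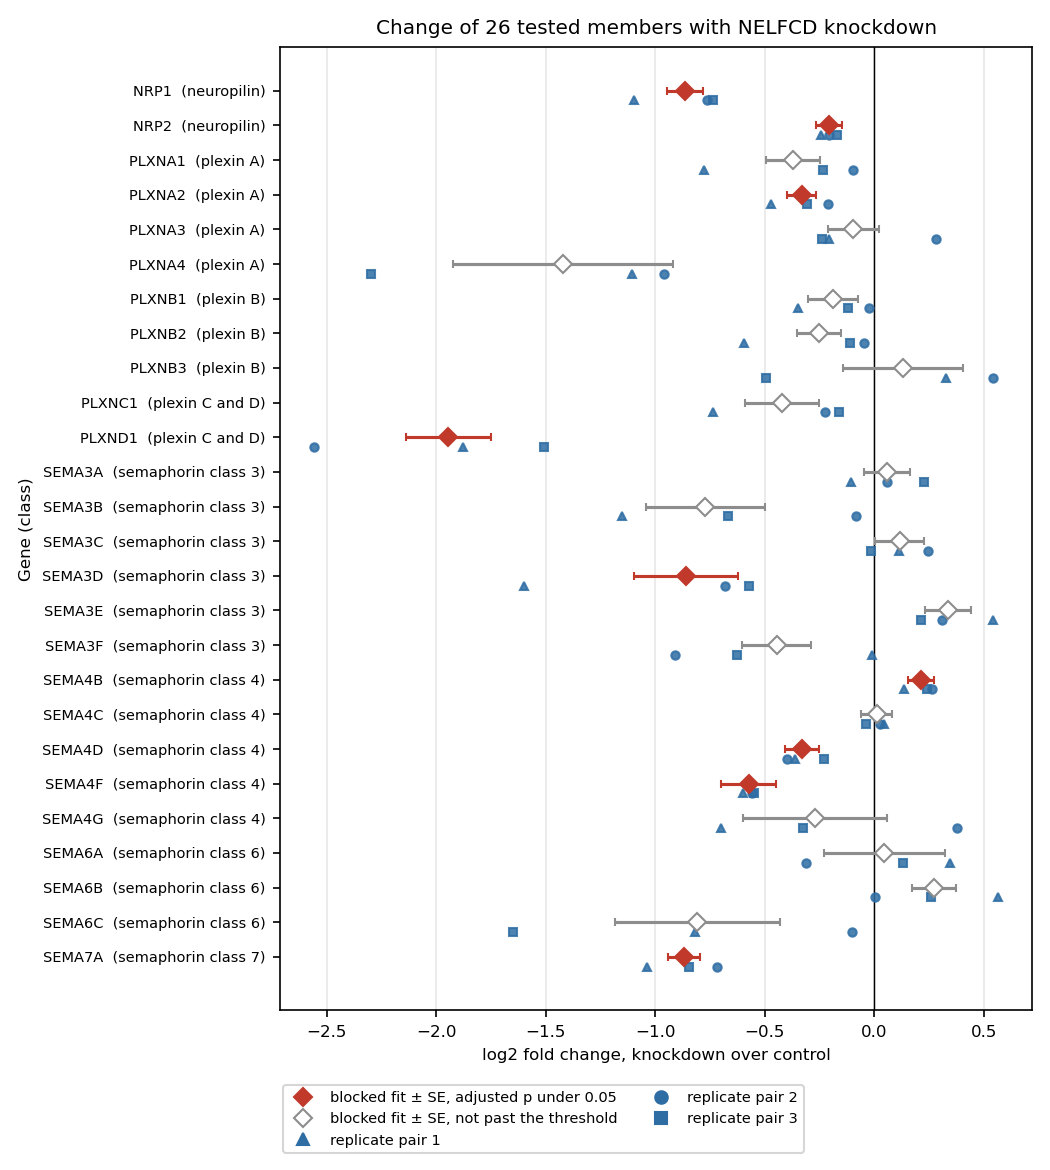
The log2 fold change of each of the 26 tested members, knockdown over control, is drawn with its SE from the blocked fit as a diamond (filled at an adjusted p under 0.05), and the values of replicate pairs 1, 2 and 3 stand below it as a triangle, a circle and a square. PLXND1 lies farthest to the left at -1.95 and SEMA4B is the one filled diamond right of 0, at 0.21.

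Among the receptors, PLXND1 had the lowest level relative to control. PLXND1 encodes the plexin that binds SEMA3E directly, without a neuropilin, and is best known from blood vessels. It had 6.91, 1.51 and 2.88 CPM in knockdown libraries 1 to 3 and 25.5, 9.06 and 8.25 CPM in control libraries 1 to 3. The groups did not overlap, and in each group replicate 1 was the highest library. The knockdown level was 27.1%, 16.7% and 34.9% of the control level in pairs 1, 2 and 3. The fold change was -1.95 ± 0.19 (SE, adjusted p = 0.0009). PLXND1 was the only member that both passed the threshold and fell at least 2-fold, as did 0.889% of all genes. The raw counts behind it were 104, 25 and 42 in knockdown libraries and 372, 128 and 132 in control libraries, so the level was low throughout, at 0.377 ± 0.27 FPKM in the knockdown and 1.45 ± 0.97 FPKM in the control (SD, n = 3 each).

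NRP1 encodes neuropilin-1, which binds SEMA3A and VEGFA. It had 55.5, 68.8 and 67.7 CPM in knockdown libraries 1 to 3 against 119, 117 and 113 CPM in control libraries. The groups did not overlap, and the 3 control libraries lay close together. NRP1 fell by 0.87 ± 0.083 on the log2 scale (adjusted p = 0.0008), and it did not differ between replicate 1 and replicates 2 and 3 past the threshold (log2 difference -0.11, adjusted p = 0.22). NRP2, which encodes neuropilin-2, the receptor of SEMA3F and a partner of VEGFC, had 215, 123 and 120 CPM in the knockdown and 255, 141 and 135 CPM in the control. The groups overlapped because replicate 1 was high in both, and within pairs the knockdown library stood at 84.3%, 86.7% and 88.9% of its control. NRP2 fell by 0.21 ± 0.058 (adjusted p = 0.048), a call that was lost with upper-quartile scaling, with DESeq2, and without pair 2 or pair 3 (adjusted p = 0.27 and 0.22). Endothelial cells use both neuropilins and PLXND1, and 3 of 10 endothelial markers reached 1 FPKM. Of these, CDH5 fell (7.99 to 9.25 FPKM in the knockdown and 20.3 to 25.6 FPKM in the control, log2 fold change -1.38, adjusted p = 0.00015), while TIE1 (means of 36.7 and 41.9 FPKM, -0.18, adjusted p = 0.082) and ESAM (1.46 and 1.25 FPKM, 0.34, adjusted p = 0.36) did not pass. The list summed to 43.4 to 54.3 FPKM in knockdown libraries and 58.7 to 76.5 FPKM in control libraries. PECAM1, VWF, TEK, KDR, CLDN5, ERG and EMCN stayed below 1 FPKM in all 6 libraries, none of them at 0 counts throughout, and the part of these markers in the receptor results was not tested.

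The plexin A receptors, the usual partners of the neuropilins, were led by PLXNA2, a receptor of class 3 and class 6 semaphorins. PLXNA2 had 504, 313 and 315 CPM in knockdown libraries and 700, 363 and 390 CPM in control libraries. It was lower in each pair, at 72.0%, 86.2% and 80.8% of control, although the groups overlapped. It fell by 0.33 ± 0.065 (adjusted p = 0.014). PLXNA1 had 176, 158 and 161 CPM against 303, 169 and 189 CPM, and the overlap came from knockdown replicate 1 and control replicate 2. Its fold change was -0.37 ± 0.12 (adjusted p = 0.090). Without pair 1 it was -0.17 (adjusted p = 0.00023), where the spread comes from replicates 2 and 3 alone, which lie close together. PLXNA3, on the X chromosome, had 71.0, 8.97 and 8.57 CPM against 82.2, 7.36 and 10.1 CPM, with a fold change of -0.10 ± 0.12 (adjusted p = 0.62). PLXNA4, another receptor of class 3 and class 6 ligands, had 5, 7 and 2 raw counts against 11, 12 and 13. It entered the test through its control libraries alone, so a difference was built into its selection, and its fold change of -1.42 ± 0.50 did not pass (adjusted p = 0.095).

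No plexin of the B and C types passed the test. PLXNB2, which binds class 4 semaphorins, had 229, 185 and 183 CPM in knockdown libraries and 346, 191 and 198 CPM in control libraries, a fold change of -0.25 ± 0.10 (adjusted p = 0.13). PLXNB1, the receptor of SEMA4D, had 28.8, 9.33 and 8.98 CPM against 36.7, 9.48 and 9.76 CPM (-0.19 ± 0.11, adjusted p = 0.29). PLXNC1, the plexin that binds SEMA7A and is known from melanocytes, had 10.6, 5.39 and 3.91 CPM against 17.6, 6.30 and 4.38 CPM. Its fold change was -0.42 ± 0.17 (adjusted p = 0.13), with the largest gap in pair 1. PLXNB3, a receptor of SEMA5A, had 4.65, 2.18 and 1.85 CPM against 3.70, 1.49 and 2.63 CPM, and 20.4% of its exon bases overlap SRPK3.

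Among the ligands, SEMA7A had the smallest adjusted p. It binds PLXNC1 and the beta-1 integrin. It had 129, 98.8 and 95.9 CPM in knockdown libraries 1 to 3 and 266, 163 and 173 CPM in control libraries 1 to 3. The groups did not overlap: the highest knockdown library, replicate 1, lay below the lowest control library. The knockdown level was 48.7%, 60.7% and 55.6% of control in pairs 1, 2 and 3, and SEMA7A fell by 0.87 ± 0.073 (adjusted p = 0.0005). Of its receptor genes, PLXNC1 was at -0.42 as given above and ITGB1, which encodes the beta-1 integrin, at -0.08 ± 0.075 (adjusted p = 0.51), and neither passed.

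**Figure D2:**
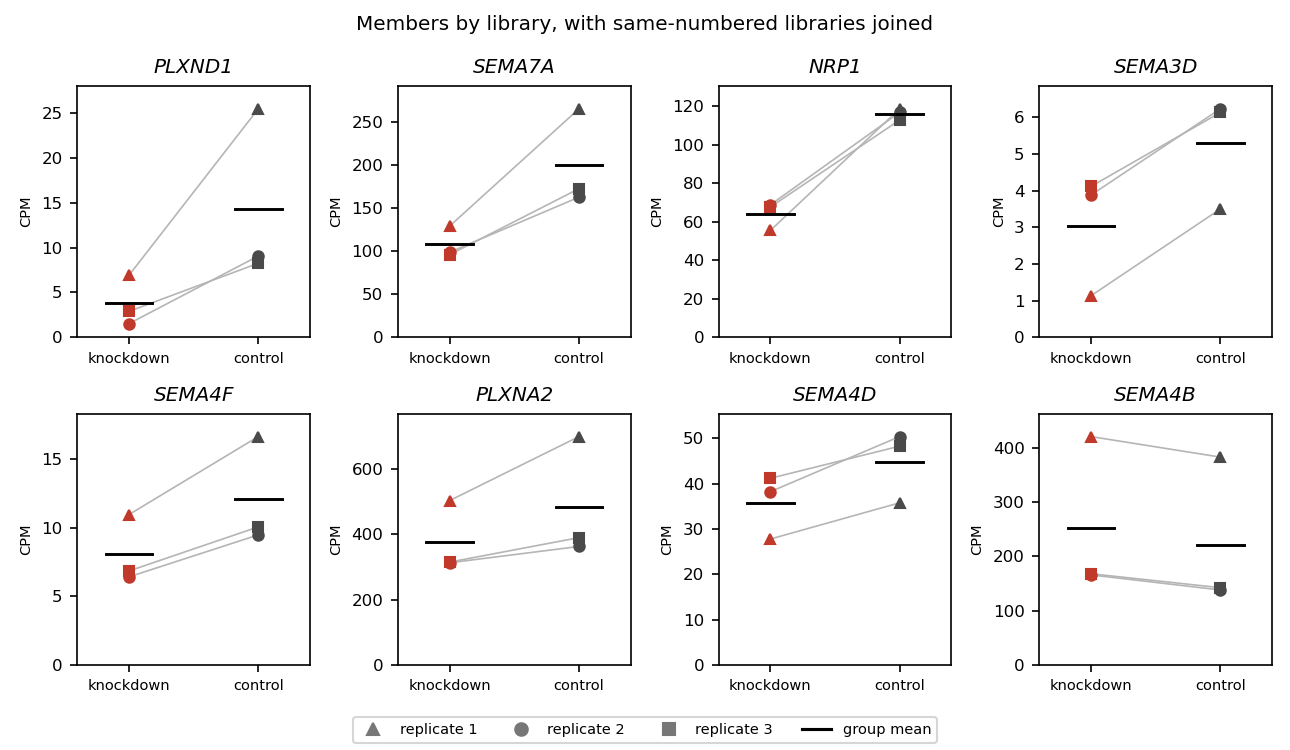
CPM in each library for 8 of the 9 members past the threshold (NRP2 is given in the text), knockdown left and control right, with grey lines joining the same replicate number and bars at the group means. The lines run upward to the control except for SEMA4B. Replicate 1 is the highest library of each group for PLXND1, SEMA7A, SEMA4F, PLXNA2 and SEMA4B and the lowest for SEMA3D and SEMA4D.

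Class 4 semaphorins, membrane proteins that mostly bind plexin B receptors, moved in both directions. SEMA4B had 421, 166 and 168 CPM in knockdown libraries and 383, 138 and 142 CPM in control libraries, and was higher within each pair. It rose by 0.21 ± 0.059 (adjusted p = 0.047), and the call was lost without pair 2 (adjusted p = 0.34), without pair 3 (adjusted p = 0.34), with DESeq2 (0.16), with DESeq2 size factors (0.056) and without the filter (0.057). SEMA4D, the ligand of PLXNB1, had 27.8, 38.2 and 41.2 CPM against 35.8, 50.4 and 48.3 CPM, with replicate 1 the lowest library of each group, and fell by 0.33 ± 0.078 (adjusted p = 0.026). SEMA4F had 11.0, 6.42 and 6.85 CPM against 16.7, 9.48 and 10.1 CPM. Its 3 pairs agreed closely, with 65.8%, 67.7% and 68.1% of control, and it fell by 0.57 ± 0.12 (adjusted p = 0.020). SEMA4D and SEMA4F lost their calls without pair 2 (adjusted p = 0.17 and 0.079) and with DESeq2 (0.070 and 0.058).

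SEMA4C, a ligand of PLXNB2, had 53.8, 38.7 and 39.3 CPM in knockdown libraries and 52.3, 38.1 and 40.3 CPM in control libraries. Its fold change was 0.01 ± 0.072 (adjusted p = 0.94), the smallest of the family. SEMA4G, with 20 to 22 raw counts in knockdown libraries and 13 to 35 in control libraries, had a fold change of -0.27 ± 0.33 (adjusted p = 0.63), and 27.4% of its exon bases overlap MRPL43 and the antisense gene AL133215.1 together. SEMA4A had 45 counts over all 6 libraries and was not tested.

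Of the secreted class 3 ligands, 6 were tested and 1 passed. SEMA3D, which has been linked to NRP1 and PLXND1, had 1.13, 3.88 and 4.11 CPM in knockdown libraries and 3.50, 6.23 and 6.13 CPM in control libraries. It was lower within each pair, most in pair 1, where the knockdown library held 17 counts and the control library 51. It fell by 0.86 ± 0.24 (adjusted p = 0.046), and this call was lost without pair 2 (adjusted p = 0.10) and with DESeq2 (0.066). SEMA3E, the direct ligand of PLXND1, had 11.9, 27.6 and 24.7 CPM against 8.16, 22.2 and 21.3 CPM. The knockdown library was the higher one in every pair, by 0.54, 0.31 and 0.21 on the log2 scale, with a fold change of 0.34 ± 0.10 that did not pass (adjusted p = 0.068).

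SEMA3F, the ligand of NRP2, had 61.9, 9.81 and 11.4 CPM in knockdown libraries and 62.5, 18.5 and 17.7 CPM in control libraries. Replicates 2 and 3 were lower in the knockdown, at 53.1% and 64.7% of control, and replicate 1 was level at 99.1%. Over all pairs the fold change was -0.45 ± 0.16 (adjusted p = 0.097), and without pair 1 it was -0.77 (adjusted p = 6.4e-09). The latter p-value rests on replicates 2 and 3 alone, which lie close together, and does not measure the spread with replicate 1. SEMA3B, its neighbour on chromosome 3 and a gene known as a tumour suppressor in lung, had 4.45, 1.27 and 1.17 CPM against 9.94, 1.34 and 1.88 CPM (-0.77 ± 0.27, adjusted p = 0.095). SEMA3A, the founding ligand of NRP1, had 19.9, 17.4 and 18.7 CPM against 21.5, 16.7 and 16.0 CPM, a fold change of 0.06 ± 0.11 (adjusted p = 0.77). SEMA3C had 7.71, 20.0 and 17.5 CPM against 7.13, 16.8 and 17.7 CPM (0.11 ± 0.11, adjusted p = 0.54). The partners SEMA3A and NRP1 had fold changes of 0.06 and -0.87 side by side.

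None of the 3 tested class 6 ligands, which bind plexin A receptors directly, passed. SEMA6B had 64.9, 67.5 and 73.1 CPM in knockdown libraries and 43.9, 67.4 and 61.1 CPM in control libraries. Control replicate 1 was the low library, and the fold change was 0.27 ± 0.10 (adjusted p = 0.11). SEMA6C, with 29, 12 and 4 raw counts against 50, 11 and 15, and SEMA6A, with 29, 32 and 32 against 22, 34 and 32, had fold changes of -0.81 ± 0.38 and 0.04 ± 0.28 (adjusted p = 0.19 and 0.93). Too few counts for a test were found for SEMA3G (13 over 6 libraries), SEMA6D (11) and SEMA5A (7), and SEMA5B had 0 counts in every library, where 3 counts would be 0.18 to 0.21 CPM. Of the 5 noncoding rows named after members, SEMA3F-AS1 and SEMA6A-AS1 were tested and neither passed in the blocked fit (0.06 ± 0.40 and -0.09 ± 0.44, adjusted p = 0.94 and 0.91). Whether counting used strand is not given in the sources used here, so reads of these antisense genes and their partners cannot be told apart.

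Levels between genes were compared in the deposited FPKM. The summed level was 103 ± 28 FPKM in the knockdown and 124 ± 36 FPKM in the control for semaphorins, 74.1 ± 15 and 96.0 ± 38 FPKM for plexins, and 16.2 ± 2.8 and 22.7 ± 4.7 FPKM for neuropilins (SD, n = 3 each). The sums of the groups overlapped for semaphorins and plexins, and for neuropilins the knockdown sums were 19.5, 14.8 and 14.5 FPKM against 28.1, 20.4 and 19.6 FPKM, with the highest knockdown sum just under the lowest control sum. SEMA7A held 24.2%, 30.0% and 28.8% of the semaphorin FPKM in knockdown libraries against 41.3%, 42.1% and 43.8% in control libraries. SEMA4B held 42.7%, 27.3% and 27.4% against 32.3%, 19.4% and 19.6%. These shares are parts of 1 total, so a lower share of SEMA7A raises the others.

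By mean FPKM the knockdown order began with SEMA4B at 35.1 ± 20, SEMA7A at 27.9 ± 4.1, PLXNB2 at 27.0 ± 2.9 and PLXNA2 at 26.8 ± 7.1 FPKM. The control order began with SEMA7A at 52.4 ± 14, PLXNA2 at 34.9 ± 13, PLXNB2 at 33.5 ± 11 and SEMA4B at 31.3 ± 19 FPKM. Within each group the libraries of neighbours among these 4 overlapped. Between neighbours in the whole order of the 26 tested members, 19 of 25 steps overlapped in the knockdown and 21 of 25 in the control. SEMA6B (15.3 and 13.0 FPKM), PLXNA1 (14.8 and 20.0) and NRP2 (10.8 and 12.7) came next, in knockdown and control. NRP1 ranked 10th in the knockdown with 5.48 ± 0.74 FPKM and 8th in the control with 10.1 ± 0.19 FPKM. PLXNA2, PLXNB2 and PLXNA1 together supplied most of the plexin FPKM in every library, with PLXNA2 at 34.7% to 38.2% in the knockdown and 35.8% to 37.0% in the control. A mean of 10 FPKM or more was reached by 7 members in the knockdown and 8 in the control, and 14 and 13 members stayed under 1 FPKM.

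**Figure D3:**
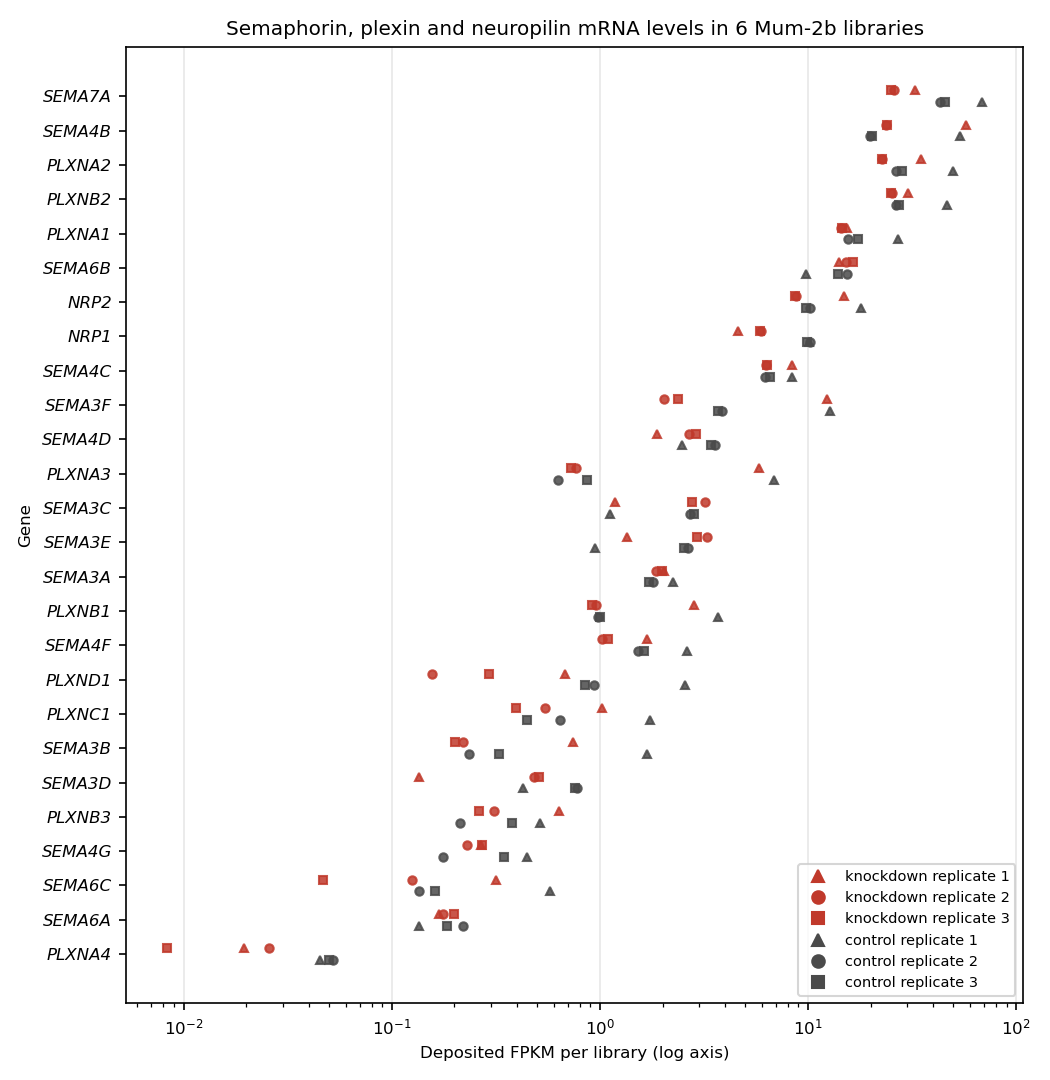
Deposited FPKM on a log axis for the 26 tested members, ordered by level, with knockdown libraries in red above control libraries in dark grey and the replicate number as the marker shape. Levels run from 0.0179 FPKM (PLXNA4 in the knockdown, mean) to 52.4 FPKM (SEMA7A in the control, mean), and replicate 1 (triangles) lies to 1 side of the others for most members.

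The difference between replicate 1 and replicates 2 and 3 was larger than the knockdown change in 22 of 26 members (84.6%) and in 75.0% of all genes tested. With the group in the model, 61.8% of genes and 22 members differed between replicate 1 and the others. Of these, 17 members were higher in replicate 1, against 31.6% of genes, and 5 were lower, against 30.2%. The median absolute log2 difference was 0.82 over the members and 0.47 over all genes. Plexins were higher in replicate 1 in 8 of 9 cases and lower in 0. PLXNA3 had the largest difference, 3.12 ± 0.10 (adjusted p = 1.4e-10), or 71.0 CPM in replicate 1 against 8.97 and 8.57 CPM in replicates 2 and 3 of the knockdown, and 82.2 against 7.36 and 10.1 CPM in the control. SEMA3B (2.28), SEMA3F (2.16), SEMA6C (1.95), PLXNB1 (1.80), PLXND1 (1.60), PLXNC1 (1.47), SEMA4B (1.39) and PLXNB3 (1.02) followed on the log2 scale. Lower in replicate 1 were SEMA3C (-1.28), SEMA3E (-1.26), SEMA3D (-1.19), SEMA4D (-0.49) and SEMA6B (-0.32). Both replicate 1 libraries lay above the other 4 libraries in 14 members, against 31.1% of genes, and below them in 5, against 29.9%. The labels name 2 RNA extraction kits without saying which library had which, and no date or batch, so the source of this split was not tested.

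**Figure D4:**
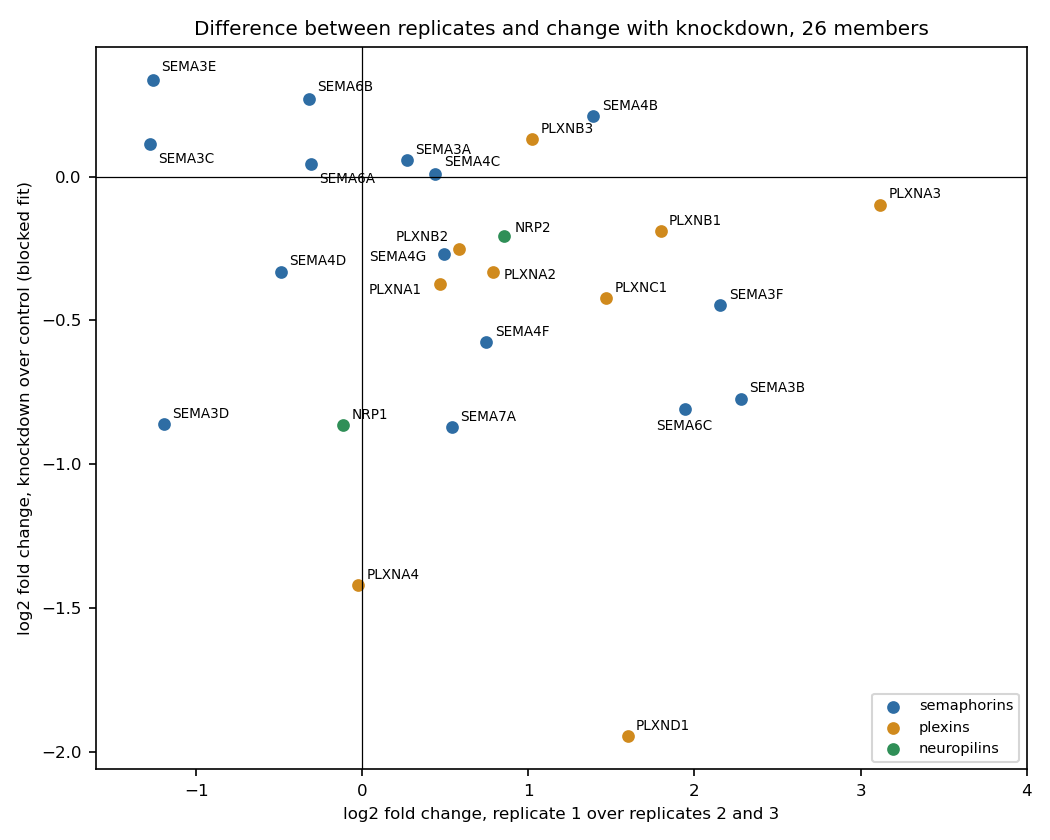
Each of the 26 tested members is placed by its log2 difference between replicate 1 and replicates 2 and 3 (horizontal) and its log2 fold change with knockdown in the blocked fit (vertical). The horizontal spread, from -1.28 to 3.12, exceeds the vertical spread, from -1.95 to 0.34, and PLXND1 is the lowest point.

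Several members lie on the same chromosome. SEMA3C (chr7:80742538-80922359), SEMA3E (chr7:83363238-83649113), SEMA3A (chr7:83955777-84492724) and SEMA3D (chr7:84995553-85186855), in hg38 coordinates of the count table, are class 3 genes on the minus strand of chromosome 7. Of these 4, SEMA3C, SEMA3E and SEMA3D were lower in replicate 1, and SEMA3A was higher (0.27 ± 0.10, adjusted p = 0.039). On chromosome 3 lie SEMA3F (chr3:50155045-50189075), SEMA3B (chr3:50267558-50277546) and PLXNB1 (chr3:48403854-48430051), and far from these PLXNA1 (chr3:126988594-127037392) and PLXND1 (chr3:129555175-129606818). All 5 were higher in replicate 1, as were 17 of the 26 tested members. Over the 875 tested genes of chromosome 3, 257 were higher and 257 lower in replicate 1, with a median of 0.003 on the log2 scale. Over the 712 tested genes of chromosome 7, 203 were higher and 222 lower, with a median of 0.009.

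The size of the knockdown change in pair 1 was set against that in pairs 2 and 3 with an interaction term that was added after the pair values were seen, so it restates them. Pair 1 has 1 library of each group, and the spread in this test comes from replicates 2 and 3 alone, which lie close together, and is assumed to hold for replicate 1. Its p-values do not measure how such a difference varies between repeats of replicate 1. On that footing the term passed the threshold in 13% of all genes and in 7 of 26 members. Relative to pairs 2 and 3, pair 1 was lower for SEMA7A (-0.25, adjusted p = 0.019), NRP1 (-0.35, 0.0086), PLXNA2 (-0.21, 0.0087), PLXNB2 (-0.52, 6.0e-09) and PLXNA1 (-0.61, 3.8e-10), where 7.96% of genes were lower. It was higher for SEMA3F (0.76, adjusted p = 0.00024) and SEMA6B (0.43, 0.0052), where 5.06% of genes were higher. For NELFCD itself the term was -0.52 (adjusted p = 0.0029).

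In replicates 2 and 3 alone, 10 of 26 members fell, against 13.9% of all genes, and 2 rose, against 11.7%. PLXND1, SEMA7A, NRP1 and PLXNA2 were among those that fell. Across 11 fits that held the replicate number, a replicate 1 term or only replicates 2 and 3, PLXND1, SEMA7A, NRP1 and PLXNA2 were called lower in 11 of 11. These fits reuse the same libraries and are not independent, and the share of all genes called in every one was not computed. For PLXNA2 the adjusted p in them was up to 0.049. In the 11 fits of the group alone with replicate 1 included, NRP1 was called in 1 and PLXND1, SEMA7A and PLXNA2 in 0. The counts that follow are again for the first 11 fits. SEMA3D, SEMA4D and SEMA4F were called in 9 of 11, NRP2 in 7 and SEMA4B in 6. PLXNA1, which the blocked fit did not call, was called lower in 6, SEMA3F was called lower in 4, and SEMA3E was called higher in 4.

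Genes that act with the family were taken from 5 lists with 90 genes, of which 76 were tested, and in the blocked fit 5 rose and 11 fell, against 5.48% and 8.01% of all genes. With the group alone in the model and all libraries included, edgeR called 0 of them. Among co-receptors and other semaphorin receptors, 2 of 10 rose and 3 fell. MST1R, the RON receptor tyrosine kinase that associates with plexin B receptors, had 10.6, 4.42 and 3.77 CPM in knockdown libraries and 3.77, 2.05 and 1.81 CPM in control libraries, and rose by 1.25 ± 0.20 (adjusted p = 0.0073). ROBO1, a Slit receptor, had 54.6, 49.0 and 52.8 CPM against 37.3, 34.3 and 36.5 CPM, with no overlap, and rose by 0.53 ± 0.071 (adjusted p = 0.0033). MET and ERBB2, tyrosine kinases that pair with plexin B receptors, fell by 0.38 ± 0.094 (adjusted p = 0.031) and 0.35 ± 0.069 (adjusted p = 0.014), and PTK7 fell by 0.22 ± 0.062 (adjusted p = 0.044). MET lost its call without pair 2 (adjusted p = 0.069), and PTK7 with upper-quartile scaling (0.087), with DESeq2 (0.14), and without pair 2 or pair 3 (0.23 and 0.29). ITGB1 and SCARF1, the most abundant members of that list that did not pass, were at -0.08 and 0.08.

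The VEGF list, whose proteins share the neuropilins, had 5 tested genes. Of these, 0 rose and 2 fell, against 5.48% and 8.01% of all genes. VEGFA, the ligand of NRP1, had 67.9, 17.3 and 16.7 CPM in knockdown libraries and 127, 25.3 and 26.1 CPM in control libraries, and fell by 0.72 ± 0.091 (adjusted p = 0.0024). VEGFC, which binds NRP2, had 57.2, 13.0 and 13.4 CPM against 92.0, 21.1 and 23.8 CPM, and fell by 0.73 ± 0.082 (adjusted p = 0.0015). Replicate 1 was more than 4-fold higher for both, and within each pair the knockdown library was the lower one. VEGFB and PGF did not pass, at -0.01 and -0.21.

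Of 28 tested cytoskeletal and adhesion effectors, 0 rose and 3 fell, against 5.48% and 8.01% of all genes. SSH1, the phosphatase that activates cofilin, had 26.3, 27.7 and 31.6 CPM in knockdown libraries against 51.1, 43.8 and 46.4 CPM in control libraries and fell by 0.72 ± 0.095 (adjusted p = 0.0031). MICAL2, an enzyme that oxidises actin, fell by 0.67 ± 0.13 (adjusted p = 0.018), and EZR, the membrane linker ezrin, by 0.34 ± 0.066 (adjusted p = 0.014), a call lost without pair 2 (adjusted p = 0.075). IQGAP1 and TLN1 were at -0.12 and -0.13 and did not pass. Of 7 tested proteases that cut members of the family, ADAMTS1, which cleaves SEMA3C, rose by 0.26 ± 0.073 (adjusted p = 0.047), and MMP14, which releases SEMA4D from the membrane, fell by 0.68 ± 0.060 (adjusted p = 0.0005). ADAMTS1 lost its call with DESeq2 size factors (adjusted p = 0.052), with DESeq2 (0.12), and without pair 2 or pair 3 (0.11 each). FURIN, which processes class 3 ligands, was at -0.27 (adjusted p = 0.0501), just outside the threshold, and ADAM10 at -0.10.

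**Figure D5:**
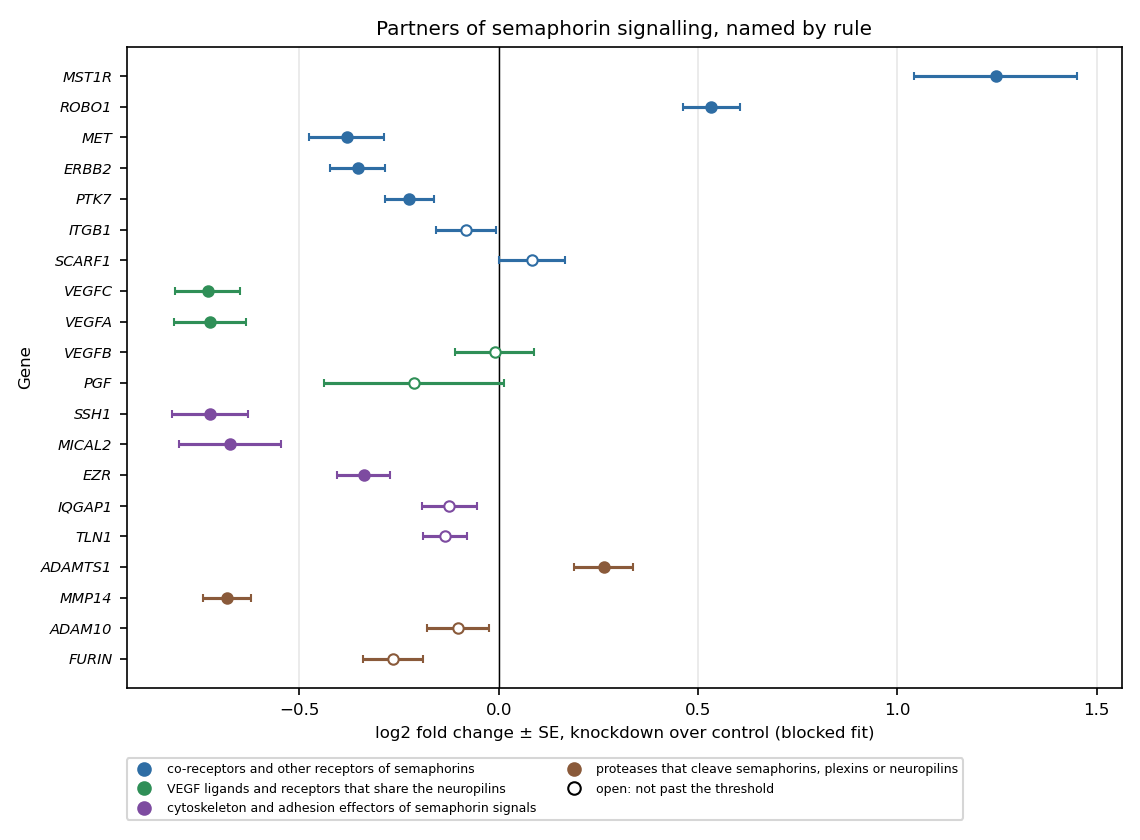
Log2 fold change with SE in the blocked fit, knockdown over control, for the genes of 4 partner lists chosen by the naming rule, coloured by list, with open circles for genes that did not pass. MST1R is farthest right at 1.25, and VEGFC and VEGFA lie lowest among the filled points, at -0.73 and -0.72, beside SSH1 at -0.72.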

How the data were processed

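mRNA-seq libraries (SMARTER mRNA-seq kit, per the labels' protocols) of 6 samples were quantified by the authors on hg38, per the submitters' processing notes. Raw counts per gene and FPKM were deposited, per the file headers. The deposited FPKM follows from the deposited count, the listed length and a single factor for each library, at 0.982 to 1.07 times that library's total. The aligner, the counter and the use of strand are not given in the sources used here.

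Counts were filtered with filterByExpr (14844 genes kept), scaled by TMM, and tested with edgeR 4.0.16 (quasi-likelihood F-test, robust) in R 4.3.3, with Benjamini-Hochberg adjustment over all genes and a threshold of 0.05. DESeq2 1.42.0 and limma 3.58.1 (voom) were alternatives. SE is the log2 fold change divided by the square root of F, and pair values use a pseudocount of 0.5 counts. The design fits the group alone, and the replicate number was a second fit. Deviations from the group mean were shared by libraries of equal number (correlations across genes of 0.821, 0.591 and 0.578), so the numbers were taken to pair the samples. This rests on the data and not on the labels, and on replicate 1. The group mean includes replicate 1, so its split alone raises the correlations of replicates 2 and 3. Replicate 2 minus replicate 3 did not correlate between the groups (-0.0012), so a pairing of numbers 2 and 3 is not shown. The block lowered edgeR's common coefficient of variation to 8.17%, against 32.6% without it, on 2 and 4 residual degrees of freedom. Before use, the fits were run on simulated counts in which same-numbered libraries were paired by construction. Such counts cannot show whether the pairing holds in these libraries.

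Members, lists and the naming rule were chosen with earlier results of these data known. The rule names NELFCD, every tested member, and per partner list up to 4 genes in each direction past the threshold in the blocked fit with the largest fold change, plus up to 2 of highest CPM that did not pass. The genes of 1 of the 5 partner lists are counted in the total but are not reported here by name. Coordinates of 58724 of 58735 rows equal GENCODE 29, which gave exon overlaps, and promoters are from RefSeq (GRCh38.p14). Counting intervals and floors cover counting error only, since reads carry no molecular identifiers.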

Additional observations from a re-analysis of the deposited data

How the results depend on the processing

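The calls depend on how the split of replicate 1 is handled. With the group alone in the model and replicate 1 included, edgeR called 0 genes with TMM, with DESeq2 size factors and without the filter. It also called 0 when any 1 library was left out, and limma-voom called 0. DESeq2 in such a fit called 50 genes higher and 111 lower, with 1 member lower and, among partner genes, 1 higher and 2 lower. Counts with a replicate term in the model, or without replicate 1, are given as all genes higher and lower, then members, then partner genes. With the replicate block they were 813 and 1189, 1 and 8, and 5 and 11. With the block and DESeq2 size factors they were 771 and 1269, 0 and 8, and 4 and 12. With upper-quartile scaling, which shifted the median of all genes to 0.048 on the log2 scale, they were 1198 and 986, 2 and 7, and 7 and 10. Without the filter they were 1118 and 1770, 1 and 12, and 7 and 16. With the block in DESeq2 they were 446 and 912, 0 and 6, and 3 and 10, and in limma-voom 860 and 1270, 1 and 9, and 6 and 13. With replicate 1 as a batch term they were 1379 and 1738, 3 and 9, and 7 and 15. In replicates 2 and 3 alone, filtered on those libraries only and with the group alone in the model, they were 1732 and 2026, 2 and 10, and 9 and 17. With the block and pair 1 left out they were 1877 and 2213, 2 and 10, and 10 and 19, without pair 2 they were 307 and 625, 0 and 5, and 2 and 8, and without pair 3 they were 650 and 1110, 0 and 8, and 2 and 12. The cause of these differences was not tested.

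Among named genes PLXND1, SEMA7A and NRP1 kept their direction in all settings run. So did NELFCD, PLXNA1, SEMA3D, SEMA4D, SEMA4F, SEMA4G and SEMA6B, and also PLXNA4, whose direction was set by the filter. Of the named partner genes, MST1R, ROBO1, MET, ERBB2, PTK7, SSH1, MICAL2, EZR, IQGAP1, TLN1, MMP14 and FURIN kept theirs too. Signs that turned round belong to genes near 0, or to fits without the block that leave out 1 library and so hold unequal numbers of each replicate. SEMA4B turned without knockdown replicate 1 and without control replicate 2 or 3, and SEMA3C without control replicate 1 and without knockdown replicate 2 or 3. VEGFB, at 0.0093 without the block, was at -0.0016 with DESeq2 size factors, -0.0015 in DESeq2, -0.019 in limma-voom, -0.013 without the filter, -0.0094 with replicate 1 as a batch term, and -0.011 with the replicate block. With the block it was at -0.020 with DESeq2 size factors, -0.024 in DESeq2, -0.027 without the filter, -0.074 without pair 1 and -0.025 without pair 3, and in replicates 2 and 3 alone at -0.075. SEMA4C was at -0.0058 and -0.0062 without the filter, without and with the block, at -0.00024 and -0.00042 with the block under DESeq2 size factors and in DESeq2, at -0.0091 without pair 1, and at -0.011 in replicates 2 and 3 alone. Without pair 1, ADAM10 was at 0.0028, ITGB1 at 0.026, PLXNA3 at 0.0086, PLXNB3 at -0.010, SCARF1 at -0.019 and SEMA6A at -0.093. In replicates 2 and 3 alone, ADAM10 was at 0.0029, ITGB1 at 0.027, PLXNB3 at -0.041, SCARF1 at -0.024 and SEMA6A at -0.093. Without pair 2 PLXNB3 was at -0.038, and without pair 3 PGF was at 0.022, SEMA3A at -0.031 and SEMA6A at -0.0045.

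Without the block and with 1 library left out at a time, the members' median log2 fold change ran from -0.55 (without control replicate 2) to 0.016 (without control replicate 1). Under the same omissions ADAM10 ran from -0.18 to 0.053, ADAMTS1 from -0.061 to 0.47, ITGB1 from -0.15 to 0.021, NRP2 from -0.55 to 0.14, PGF from -0.85 to 0.41, PLXNA2 from -0.63 to 0.00051, PLXNA3 from -1.93 to 1.75, PLXNB1 from -1.03 to 0.71 and PLXNB2 from -0.45 to 0.031. PLXNB3 ran from -0.37 to 0.48, PLXNC1 from -1.02 to 0.31, SCARF1 from -0.26 to 0.35, SEMA3A from -0.031 to 0.19, SEMA3B from -1.84 to 0.50, SEMA3C from -0.20 to 0.43, SEMA3E from -0.026 to 0.60 and SEMA3F from -1.63 to 0.61. SEMA4B ran from -0.41 to 0.84, SEMA4C from -0.16 to 0.16, SEMA6A from -0.13 to 0.20, SEMA6C from -1.74 to 0.18, VEGFA from -1.81 to 0.40, VEGFB from -0.44 to 0.37 and VEGFC from -1.79 to 0.31. Values that rest on under 100 counts in a library, as for PLXND1 in knockdown libraries 2 and 3, are limited by depth.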
